A study of Mus musculus with 9 samples.

Results

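Retnla, Retnlb, Mrc1, Mgl2, Clec10a and Pdcd1lg2 encode secreted or surface proteins and are grouped here as genes of alternatively activated macrophages, although Retnlb is better known from goblet cells. They were taken by symbol from a table of gene counts of whole mouse lung, and all 6 were found among the 21983 genes of the table. All 6 also passed the filter on low counts, among 14739 genes tested. Retnlb and Pdcd1lg2 reached the minimum of 10 counts at the median depth (0.563 CPM, counts per 1000000) in no control library and passed through the diseased libraries, so they had to be higher there, and their tests and any count that includes them are given as descriptions. The lungs came from BALB/c mice in 3 groups of 3 libraries each. The control group and the asthma group received saline by gavage. The BSYQF group had the asthma model and received Bu-Shen-Yi-Qi formula (BSYQF), a Chinese herbal mixture, at 20 g raw herbs/kg by gavage, from day 14 and for 6 weeks. The sources used here do not give the allergen, the way asthma was induced, or the sex and age of the mice. The labels do not say whether libraries of a group came from separate mice, so each p-value measures only how far these libraries spread, which may be technical in part or whole.

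Alternative activation is the program that the cytokines IL-4 and IL-13 start in macrophages through the receptor chain IL-4Rα and the transcription factor STAT6. Retnla (RELMα, also FIZZ1) and Retnlb (RELMβ) are small secreted cysteine-rich proteins of the resistin family, the first made by macrophages and airway epithelium and the second mainly by goblet cells. Mrc1 (CD206, the mannose receptor), Mgl2 and Clec10a (galactose-type lectins) are C-type lectins that bind sugars, and Pdcd1lg2 (PD-L2) is a ligand of the T cell receptor PD-1 on macrophages and dendritic cells.

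The genes lie in 4 places in mm10, all on the plus strand and all protein coding in GENCODE vM21. Retnlb (ENSMUSG00000022650, chr16:48816856-48818892) and Retnla (ENSMUSG00000061100, chr16:48842551-48844461) are neighbours 23658 bases apart, followed after 28159 bases by another family member, Retnlg. Mgl2 (ENSMUSG00000040950, chr11:70130329-70137550) and Clec10a (ENSMUSG00000000318, chr11:70156197-70170834) are neighbours 18646 bases apart. Pdcd1lg2 (ENSMUSG00000016498, chr19:29410919-29471161) lies 22823 bases after Cd274, which encodes the other PD-1 ligand, PD-L1. Mrc1 (ENSMUSG00000026712, chr2:14229392-14332057) has no other member nearby.

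Because both pairs of neighbours are paralogues, their coding sequences were compared to see whether reads could be told apart. Retnla has 417 coding bases and Retnlb 318, with 74.8% identity over the 318 aligned bases and no exact shared run longer than 15 bases. None of the 550 windows of 50 bases in the Retnla transcript occurs in that of Retnlb, so reads of that length differ between the genes. The last 120 coding bases of each, the most conserved stretch of the family with its run of cysteine codons, follow with the 22 differing bases in capitals (81.7% identity), 5′ to 3′ from the mm10 sequence.

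Retnla, coding bases 298 to 417: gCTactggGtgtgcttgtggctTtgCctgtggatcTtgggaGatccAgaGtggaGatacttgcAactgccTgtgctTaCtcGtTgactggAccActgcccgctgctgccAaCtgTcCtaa

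Retnlb, coding bases 199 to 318: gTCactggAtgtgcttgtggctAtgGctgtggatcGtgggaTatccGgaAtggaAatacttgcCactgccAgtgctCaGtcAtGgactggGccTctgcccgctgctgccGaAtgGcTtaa

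Mgl2 and Clec10a are much closer, at 91.4% identity over 918 aligned coding bases of the 999 in Mgl2 and 918 in Clec10a. They share an exact run of 183 bases, and 242 of the 1537 windows of 50 bases in the Mgl2 transcript (15.7%) occur in Clec10a. The sources used here do not say how the authors' counting treated reads that match both genes, so the split of counts between these 2 lectins is uncertain. The shared run, coding bases 547 to 729 of Mgl2, is printed because reads within it cannot be assigned to either gene.

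Shared by Mgl2 and Clec10a: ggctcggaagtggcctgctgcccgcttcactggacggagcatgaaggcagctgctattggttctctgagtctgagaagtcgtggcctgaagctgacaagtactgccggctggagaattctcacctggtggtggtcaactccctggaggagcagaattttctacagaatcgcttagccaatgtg

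Retnla and Pdcd1lg2 were the 2 members called as higher than control in both the asthma and the BSYQF group. Pdcd1lg2 entered the test through its diseased libraries, so its calls are a description. Genomic sequence before the start of both is shown (RefSeq, GRCm38.p6, plus strand). The stretch of Retnla ends before its GENCODE start at 48842551, while its RefSeq start lies further on, at 48842609. For Pdcd1lg2 both starts are at 29410919. Capitals mark TTC and GAA separated by any 4 bases, a palindrome with the spacing that STAT6 prefers; both strands are searched at once.

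Retnla, chr16:48842359-48842550: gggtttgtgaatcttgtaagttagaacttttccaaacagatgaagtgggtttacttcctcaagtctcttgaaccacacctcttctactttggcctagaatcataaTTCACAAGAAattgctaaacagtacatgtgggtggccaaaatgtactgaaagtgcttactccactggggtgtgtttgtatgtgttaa

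Pdcd1lg2, chr19:29410669-29410918: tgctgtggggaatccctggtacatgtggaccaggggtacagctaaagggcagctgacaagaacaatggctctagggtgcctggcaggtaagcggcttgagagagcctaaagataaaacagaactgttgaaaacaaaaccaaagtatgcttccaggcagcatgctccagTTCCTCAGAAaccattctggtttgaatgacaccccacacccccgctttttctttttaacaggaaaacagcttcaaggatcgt

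The match lies 145 to 136 bases before the RefSeq start of Retnla and 82 to 73 bases before that of Pdcd1lg2. Of all 32851 promoters in the RefSeq table, 4.58% hold the motif in a window of 192 bases, the length shown for Retnla, and 5.85% in one of 250 bases, the length shown for Pdcd1lg2. The windows of Mrc1 (228 bases) and Mgl2 (222 bases) hold no such match, against 5.36% and 5.27% of promoters at those lengths. Retnlg, the neighbour of Retnla, which was not called in asthma, holds a match 72 to 63 bases before its start. Retnlb and Clec10a were not matched in that table, so 4 of the 6 members were searched. Patterns of the transcription factors C/EBP and AP-1, and TTC and GAA separated by 3 bases, were searched as well. That of C/EBP matched in Retnla, Mrc1 and Mgl2 and not in Pdcd1lg2, where 31.4% (192 bases) to 36.8% (250 bases) of promoters hold it. The others matched in no member searched. A match is a description of the letters and not a site of binding, and binding was not measured here. Whether matches go with the calls was not tested.

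The libraries held 16286385 to 22819199 counts over genes, and 15476 to 16486 genes had at least 1 count. At these depths, 3 counts, the limit that a count of 0 allows, correspond to 0.134 to 0.202 CPM. The libraries of a disease group were unlike each other. On the first principal component of log2 CPM (51.6% of the variance) the controls lay between -56.7 and -43.2, asthma 1, 2 and 3 at 51.9, 76.0 and 1.8, and BSYQF 1, 2 and 3 at 40.5, 1.2 and -19.6. Asthma 3 thus stood apart from the other asthma libraries, and BSYQF 1 from the other BSYQF libraries, and the fold changes that move most without them are given beside the full values.

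All 6 members lay higher in each asthma library than in each control library, as did 22.0% of all genes tested. Retnla, Retnlb, Mrc1 and Pdcd1lg2 passed the test, where 12.7% of all genes were called, 8.23% as higher. Retnlb and Pdcd1lg2 had to be higher there, so counts that include them are no comparison with these shares. Counts of list genes in asthma given below stand beside the same shares of all genes, 8.23% called as higher and 4.45% as lower. After BSYQF no member differed from asthma by the test, and the 3 BSYQF libraries of most members spread from the asthma level downwards. Against control, Retnla and Pdcd1lg2 were called as higher in the BSYQF group. A gene is called where its quasi-likelihood p from edgeR, adjusted by Benjamini-Hochberg over all 14739 genes, is below 0.05.

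Retnla carried by far the most RNA of the members. It stood at 81.4, 16.0 and 22.2 CPM in control libraries 1, 2 and 3, at 3879, 6074 and 2173 CPM in the asthma libraries, and at 4696, 1068 and 406 CPM in the BSYQF libraries. The lowest asthma library lay above every control library, BSYQF 1 lay within the asthma range, and BSYQF 2 and 3 lay between the asthma and control ranges. Group means were 39.8 ± 36.1, 4042 ± 1955 and 2057 ± 2310 CPM (SD, n = 3 each). In asthma, Retnla took 0.212% to 0.555% of all counts of a library and ranked between the 10th and the 23rd gene by count. In control it took 0.00165% to 0.00833% of counts and ranked between 2861 and 8899. In BSYQF 1, 2 and 3 it ranked 11, 56 and 232. It rose in asthma by 6.66 ± 1.11 (log2 fold change ± SE), about 101-fold (adjusted p = 0.0108, edgeR). The call was lost without control 2 (adjusted p = 0.0568), control 3 (0.0544) or asthma 2 (0.0529), while the log2 fold change stayed between 6.23 and 7.73 whichever of the 9 libraries was left out.

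Retnlb, the paralogue 23658 bases away, was rare. It had 1, 0 and 0 counts in the control libraries, 68, 56 and 14 in the asthma libraries, and 24, 3 and 0 in the BSYQF libraries. All 3 asthma libraries lay above all controls, with asthma 3 well below asthma 1 and 2, and the BSYQF libraries reached from that range down to 0. In CPM these counts are 3.85, 3.76 and 0.628 in asthma and 1.45, 0.174 and 0 in BSYQF. The summed counts, 138 in asthma against 1 in control, give a ratio of 137 at equal depth with an exact 95% interval of 24.2 to 5444, which covers counting error only. The fitted log2 fold change was 6.76 ± 1.61 (edgeR adjusted p = 0.0281), a value that rests on 1 control count, depends on the prior count and comes from a gene that entered the test through its diseased libraries. That call was lost when any control library, asthma 1 or asthma 2 was left out (adjusted p = 0.0786 to 0.112), and limma voom put it just outside the threshold (adjusted p = 0.05003). Retnla and Retnlb did not stay in one proportion: Retnla had 1008, 1613 and 3463 counts for each Retnlb count in asthma 1, 2 and 3, and 3231 and 6130 in BSYQF 1 and 2.

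The resistin family as a whole did not move one way. Retn, resistin itself and in mice an adipocyte hormone, fell from 14.1 ± 13.01 CPM in control to 0.418 ± 0.725 CPM in asthma (log2 fold change -4.88, edgeR adjusted p = 0.0326), with 531, 171 and 69 counts against 0, 0 and 28. Retn stood at 13.01 ± 8.43 CPM after BSYQF. Retnlg, a relative expressed mainly in neutrophils and the gene next to Retnla, had a log2 difference of 0.94 that did not pass the test (adjusted p = 0.204). Of 9 adipocyte genes, Retn among them, 6 fell in asthma and none rose. Summed over that list the level was 192 to 712 CPM in control, 90.9 to 155 CPM in asthma and 198 to 599 CPM after BSYQF. Most of the asthma sum was Lipe (80.4 CPM on average), which was not called. Other adipocyte genes fell with Retn, among them Adipoq from 18.6 to 0.296 CPM on average. Their part in its fall was not tested. Fat cells can also carry Retnla. Control 1 had the highest control value of both the sum and Retnla, while BSYQF 3 had the highest BSYQF sum and the lowest BSYQF Retnla. The part of fat cells in the level of Retnla was not tested.

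**Figure D1:**
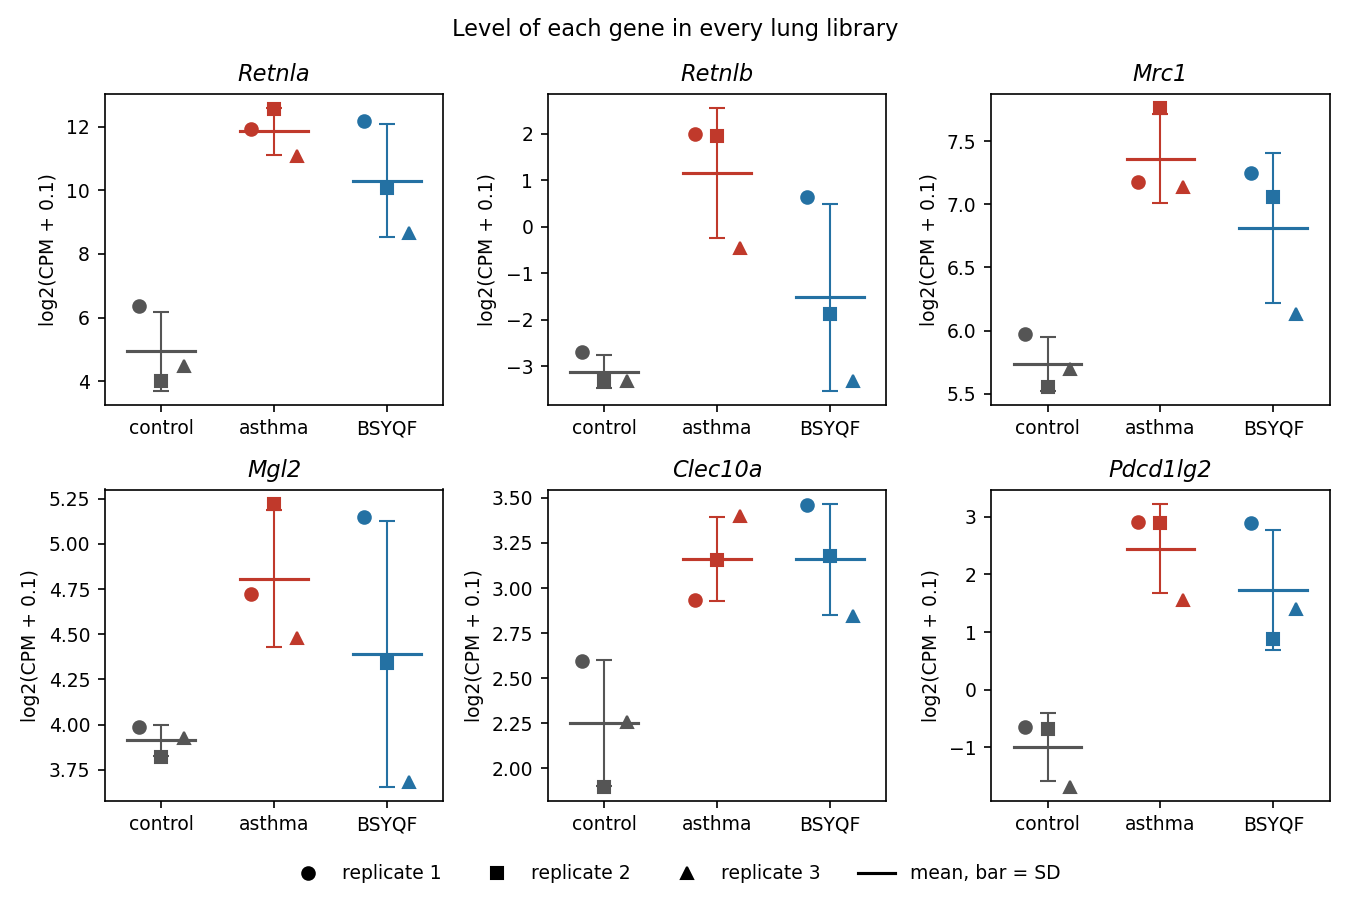
Level of each of the 6 genes in every library, as log2 of CPM plus 0.1, by group, with the marker shape giving the replicate number, the line the group mean and the bar the SD (n = 3). Each asthma library lies above each control library for all 6 genes, as for 22.0% of all genes tested. Retnlb and Pdcd1lg2 passed the filter through their diseased libraries. The 3 BSYQF libraries of Retnla spread from 4696 down to 406 CPM.

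Among the lectin receptors, Mrc1 was the most abundant and the one whose call was least sensitive to single libraries. It stood at 62.6, 46.7 and 51.8 CPM in control, at 144, 217 and 141 CPM in asthma, and at 151, 133 and 70.1 CPM after BSYQF. The control libraries were close together and below all the others, and BSYQF 3 was the lowest of the diseased libraries. Mrc1 rose in asthma by 1.64 ± 0.28 on the log2 scale, about 3.12-fold (edgeR adjusted p = 0.0100), and leaving out any 1 of the 9 libraries ended the call only for control 2 (adjusted p = 0.0505).

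Mgl2 stood at 15.8, 14.0 and 15.1 CPM in control, at 26.3, 37.2 and 22.2 CPM in asthma, and at 35.4, 20.2 and 12.8 CPM after BSYQF. The asthma and control ranges did not overlap, and BSYQF 3 was the lowest of the 9 libraries. Its log2 difference in asthma was 0.93 ± 0.32, which did not pass the test (edgeR adjusted p = 0.0765). Clec10a stood at 5.94, 3.63 and 4.68 CPM in control, at 7.53, 8.81 and 10.4 CPM in asthma, and at 10.9, 8.95 and 7.08 CPM after BSYQF. Every diseased library lay above every control library, and the asthma and BSYQF ranges lay over each other. Its log2 difference in asthma was 0.91 ± 0.27, just outside the threshold (edgeR adjusted p = 0.0505). Both lectins passed with DESeq2 (adjusted p = 0.0358 for Mgl2 and 0.0163 for Clec10a), and both passed in edgeR without BSYQF 1 or without BSYQF 3.

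The 2 lectins that share sequence kept a similar count ratio in control and asthma. There were 2.65, 3.87 and 3.23 counts of Mgl2 for each count of Clec10a in control, 3.49, 4.23 and 2.12 in asthma, and 3.25, 2.25 and 1.80 after BSYQF. The 3 ranges overlap, and the part of shared reads in these ratios was not tested.

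Of 19 other macrophage C-type lectins tested, 8 rose in asthma and none fell, where 8.23% of all genes were called as higher. They were Clec4n (Dectin-2), which rose by 3.21 (edgeR adjusted p = 0.0042), Cd209d by 3.18, Clec4a2 by 2.32, Clec5a by 2.26, Clec4d by 2.02, Clec7a (Dectin-1, the β-glucan receptor) by 1.89, Clec4a3 by 1.67 and Clec4a1 by 1.19, all on the log2 scale. Cd209d had only 14, 6 and 1 counts in control and needed its diseased libraries to pass the filter. The median log2 difference of the list was 0.66, against 0.02 for all genes tested. After BSYQF none differed from asthma, and Clec5a alone of the 19 was called above control (1.47, edgeR adjusted p = 0.0338).

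Pdcd1lg2, the PD-1 ligand, was rare in control lung. It had 10, 9 and 4 counts in the control libraries, 130, 109 and 63 in the asthma libraries, and 120, 30 and 49 in the BSYQF libraries. These are 0.540, 0.527 and 0.213 CPM in control, 7.36, 7.33 and 2.82 CPM in asthma, and 7.27, 1.74 and 2.55 CPM after BSYQF. All 6 diseased libraries lay above all 3 controls, BSYQF 1 matched the upper asthma libraries, and BSYQF 2 and 3 lay close to asthma 3. The log2 difference of Pdcd1lg2 in asthma was 3.75 ± 0.67, about 13.5-fold (edgeR adjusted p = 0.0108), again for a gene that entered the test through its diseased libraries. The call was lost without control 2 (adjusted p = 0.0505) or asthma 1 (0.0518).

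Its neighbour and its receptor were tested from levels above the filter in control. Cd274 rose by 0.84 (edgeR adjusted p = 0.0256), from 26.5 ± 5.23 CPM in control to 47.5 ± 10.4 CPM in asthma, and stood at 50.7 ± 3.59 CPM after BSYQF. Pdcd1, which encodes PD-1, rose by 1.97 (adjusted p = 0.00873, edgeR), and the costimulatory ligands Cd80 and Cd86 rose by 1.40 and 0.95. Thus 4 of 9 other genes of the PD-1 and B7 families rose and none fell, with a list median of 0.84. In the BSYQF group 3 of the 9, Cd274, Pdcd1 and Cd86, were called above control (log2 differences of 0.94, 2.08 and 1.28).

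**Figure D2:**
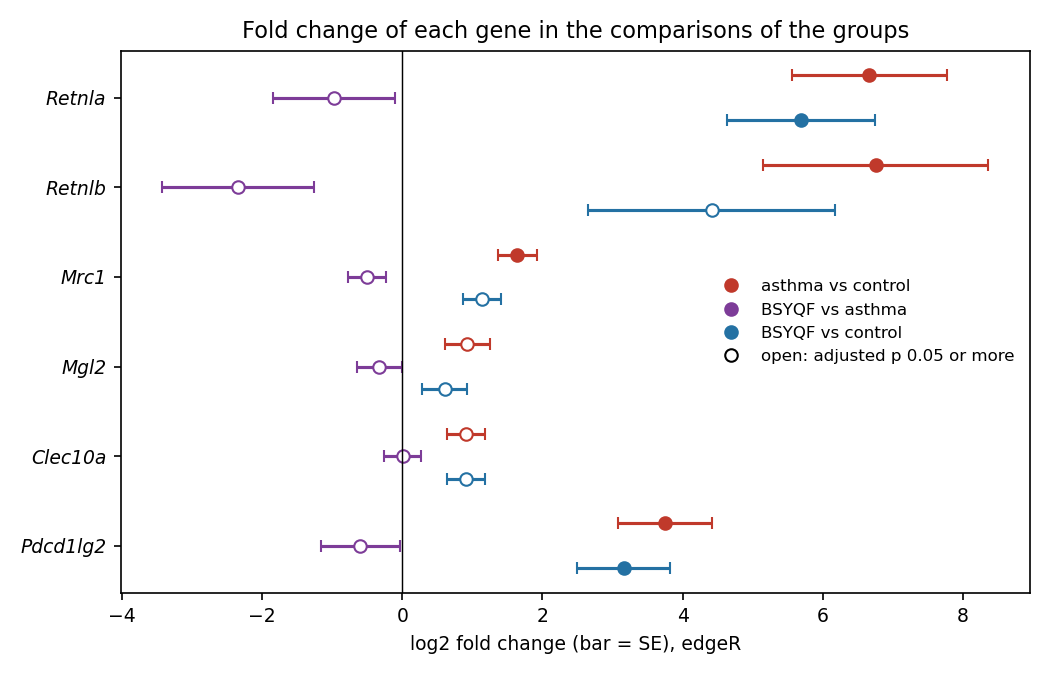
Log2 fold change of each of the 6 genes in the 3 comparisons, with its SE as the bar; closed points are called (adjusted p below 0.05, edgeR) and open points are not. In asthma against control 4 of 6 are called, where 12.7% of all genes tested were. In BSYQF against asthma none is called (0.00678% of all genes), and in BSYQF against control Retnla and Pdcd1lg2 are (1.67%). Retnlb and Pdcd1lg2 passed the filter through their diseased libraries, so counts that include them are no comparison with these shares.

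Of the 4 members that reached the filter's minimum in every library, the test called Retnla and Mrc1 as higher in asthma and none as lower, where 12.7% of the 14739 genes were called, 8.23% as higher and 4.45% as lower. With Retnlb and Pdcd1lg2 the count was 4 of 6, which is no comparison with that share. Groups without overlap, asthma above control, were seen for the 4 members that reached the minimum in every library and for 22.0% of all genes. The reverse was seen for no member and 18.4% of genes. By unadjusted edgeR p below 0.05, the same 4 members and 34.1% of genes passed. Retnlb and Pdcd1lg2 also met both, making 6 of 6, which is again no comparison with those shares. With 1 of the 9 libraries left out in turn, Mrc1 was called in 8 of 9 fits, Pdcd1lg2 in 7, Retnla in 6, Retnlb in 4, Mgl2 in 3 and Clec10a in 2.

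**Figure D3:**
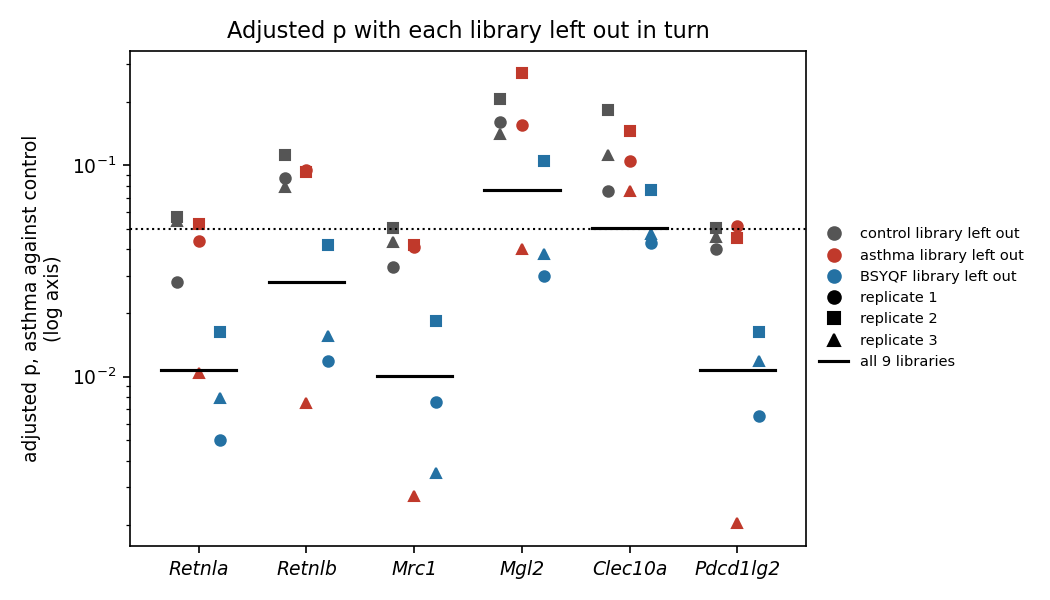
Adjusted p (log axis, edgeR) of each of the 6 genes in asthma against control with each library left out in turn; colour gives the group and shape the replicate of the library left out, the black line the value with all 9 libraries, and the dotted line 0.05. Mrc1 lies below the dotted line in all fits but 1, and no gene does so in the fit without control 2.

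BSYQF against asthma asks whether the formula changed these genes. None of the 6 was called, where 0.00678% of all genes, 1 gene, was called. DESeq2 called none of the 6 among 122 genes, limma voom called none, and none had an unadjusted p below 0.05, against 7.94% of all genes. The groups overlapped for all 6 members, where 4.76% of genes had all BSYQF libraries below all asthma libraries and 4.99% had them above. The log2 difference was -0.97 ± 0.87 for Retnla (edgeR adjusted p = 0.728), -0.50 ± 0.27 for Mrc1 (0.630), -0.33 ± 0.32 for Mgl2 (0.746), 0.01 ± 0.27 for Clec10a (0.996) and -0.60 ± 0.56 for Pdcd1lg2 (0.736). Retnlb had 27 counts after BSYQF against 138 in asthma, a ratio of 0.203 with an exact 95% interval of 0.129 to 0.308 for counting error only, and did not pass the test across libraries (log2 difference -2.34 ± 1.08, adjusted p = 0.622). The standard errors are large beside the differences, so neither a fall nor equal levels can be read from these values.

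Single libraries set the size of these differences. Without BSYQF 1 the log2 difference of Retnla was -2.45 (adjusted p = 0.295, edgeR), that of Retnlb -4.91, that of Pdcd1lg2 -1.42, that of Mgl2 -0.78, that of Mrc1 -0.71 and that of Clec10a -0.15. Without asthma 3 the difference of Retnla was -1.28 and that of Pdcd1lg2 -0.93, and without BSYQF 3 that of Retnla was -0.49. None of the 6 was called with any 1 of the 9 libraries left out, and the lowest adjusted p was 0.180, for Retnlb without asthma 3.

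BSYQF against control asks what remained of the disease difference under treatment; it shares its libraries with the other comparisons and is no independent evidence. Retnla was called as higher by 5.69 ± 1.06 on the log2 scale, about 51.6-fold (edgeR adjusted p = 0.0338), and Pdcd1lg2 by 3.16 ± 0.66, about 8.92-fold (adjusted p = 0.0392, edgeR). Mrc1 with 1.14 ± 0.27 (adjusted p = 0.0667, edgeR) and Clec10a with 0.91 ± 0.27 (0.131) did not pass. Mgl2 had 0.60 ± 0.32 (0.393), and Retnlb had 27 counts against 1, a ratio of 27.7 with an exact 95% interval of 4.57 to 1136 for counting error only. Without BSYQF 1 the log2 difference was 0.13 for Mgl2, 0.91 for Mrc1, 0.75 for Clec10a and 1.84 for Retnlb (4.41 with all libraries). So 2 of 6 members, Pdcd1lg2 with the limit given above, were called as higher and none as lower, where 1.67% of all genes were called, 1.63% as higher and 0.0407% as lower. Both calls were lost when any control library, asthma 1 or asthma 2 was left out; that of Retnla was also lost without asthma 3 and that of Pdcd1lg2 without BSYQF 1, with a log2 fold change of 4.20 to 6.75 for Retnla and 2.32 to 3.50 for Pdcd1lg2. The call of Retnla was also lost without the filter on low counts (adjusted p = 0.0796, edgeR) and with only these 2 groups fitted (0.0927), and that of Pdcd1lg2 by limma voom (0.213) and edgeR's newer dispersion method (0.0607).

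The order of the libraries was shared by some members and not by others. For both Retnla and Mrc1, asthma 2 was highest, then BSYQF 1, asthma 1, asthma 3, BSYQF 2, BSYQF 3 and the controls. Mgl2 had the same top 5 libraries, while Clec10a was highest in BSYQF 1, asthma 3 and BSYQF 2. Retnlb and Pdcd1lg2 were highest in asthma 1, then asthma 2, BSYQF 1 and asthma 3. Over the 9 libraries, Pearson's r between members' log2 CPM lay between 0.653 (Retnlb and Clec10a) and 0.964 (Retnla and Mrc1), a description over libraries that share their groups and depth.

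Per exon length the members can be set beside each other. In asthma, Retnla stood at 6748 ± 3264 RPKM (CPM per kilobase of exon; SD, n = 3), Mrc1 at 26.3 ± 6.77, Mgl2 at 13.6 ± 3.72, Retnlb at 3.95 ± 2.64, Clec10a at 3.08 ± 0.504 and Pdcd1lg2 at 2.98 ± 1.33 RPKM. The first 3 are separated by more than their spread, and the last 3 are not. In control the order was Retnla at 66.5 ± 60.3 RPKM, Mrc1 at 8.43 ± 1.27, Mgl2 at 7.15 ± 0.419, Clec10a at 1.64 ± 0.400, Pdcd1lg2 at 0.218 ± 0.0945 and Retnlb at 0.0259 ± 0.0448 RPKM. Mrc1 and Mgl2 are neighbours in that order that differ by about 1 SD of Mrc1. After BSYQF the levels were 3434 ± 3856 RPKM for Retnla, 18.6 ± 6.71 for Mrc1 and 10.9 ± 5.52 for Mgl2. They were 3.10 ± 0.659 RPKM for Clec10a, 1.96 ± 1.52 for Pdcd1lg2 and 0.780 ± 1.14 for Retnlb. Of neighbours in that order, only Mgl2 and Clec10a had means further apart than their SDs. Retnla nevertheless lay above Mrc1 in every BSYQF library. Its lowest value was 678 RPKM (BSYQF 3), and the highest of Mrc1 was 23.8 RPKM (BSYQF 1). With the longest transcript in place of all exons, Mgl2 in asthma was 17.5 and Clec10a 3.83 RPKM, with the same order of members.

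In whole lung, fewer cells of a type and less RNA per cell cannot be told apart, so genes of the cells that could carry the members were examined beside them. Of 10 general macrophage genes, 7 rose in asthma and none fell, among them Cd68 by 2.10 (edgeR adjusted p = 0.0429) and Adgre1 by 1.25 on the log2 scale. Csf1r (log2 difference 0.26, edgeR adjusted p = 0.190) and Mertk (-0.40, adjusted p = 0.299) did not pass. The summed level of the 10 genes was 4904 to 6244 CPM in control, 6110 to 8656 in asthma and 7080 to 8557 after BSYQF. Most of it was Lyz2 (4851, 5452 and 6537 CPM on average), which did not pass the test either (log2 difference 0.17, edgeR adjusted p = 0.686). Of 12 interstitial macrophage genes, 7 rose and 1 fell, and of 14 alveolar macrophage genes 1 rose and 1 fell. Of 7 monocyte genes tested, 2 rose and none fell, with a median log2 difference of -0.42. The 2 were Ly6c2, by 2.38 (edgeR adjusted p = 0.00951), and Ccr2, by 1.41 (edgeR adjusted p = 0.0102). Of 17 dendritic cell genes, 7 rose and none fell, from a summed 745 to 899 CPM in control to 1207 to 1583 CPM in asthma. The 7 were Flt3, Fscn1, Itgax, Xcr1, Batf3, Sirpa and Epcam, of which Itgax is also on the alveolar macrophage list and Epcam on the epithelium list. The dendritic cell genes Clec9a (-0.53) and Zbtb46 (-0.33) had log2 differences below 0 that did not pass.

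Set over the mean log2 CPM of the 10 macrophage genes, 3 members stood above their control libraries in asthma and 3 overlapped with them. The macrophage mean itself was 5.75 ± 0.13 in control, 7.01 ± 0.20 in asthma and 6.77 ± 0.30 after BSYQF. Relative to it, Retnla was 0.46, -1.71 and -1.15 in control and 4.78, 5.46 and 4.31 in asthma, a difference of 5.65. Pdcd1lg2 was -6.50, -6.37 and -7.26 in control and -4.24, -4.21 and -5.22 in asthma, a difference of 2.15, and Retnlb differed by 2.88, a value that the prior count of 2 limits. For these 3 genes the asthma and control libraries still did not overlap (exact 2-sided permutation p = 0.1 each, the smallest that 3 against 3 libraries can give). Retnlb and Pdcd1lg2 passed the filter through their diseased libraries, so their values here are a description. Of the 3 genes, only Retnla can be set against the lectins.

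The lectins did not stand apart as Retnla did. Mrc1 relative to the macrophage mean was 0.09, -0.17 and 0.07 in control and 0.03, 0.66 and 0.36 in asthma, a difference of 0.36 (exact permutation p = 0.3). Mgl2 differed by -0.37 (exact permutation p = 0.3) and Clec10a by -0.35 (exact permutation p = 0.2), the libraries of the 2 groups overlapping for all 3 lectins. The lectins' differences were thus of the size of that of the macrophage mean, whose genes ranged in log2 difference from -0.40 (Mertk) to 2.65 (Lgals3). The part that macrophage number had in the lectins' differences was not tested. Over 14 alveolar macrophage genes in place of the general ones, the differences were 1.62 for Mrc1, 0.89 for Mgl2, 0.90 for Clec10a, 6.91 for Retnla and 3.41 for Pdcd1lg2, so the direction for Mgl2 and Clec10a turns with the genes chosen. That alveolar list holds Fabp4 (log2 difference -2.63) and Cidec (-3.30), which are also adipocyte genes, and their part in the alveolar mean was not tested. Between BSYQF and asthma the 6 ratios gave an exact permutation p of 0.2 to 0.7, with -1.31 for Retnla and -0.48 for Pdcd1lg2.

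**Figure D4:**
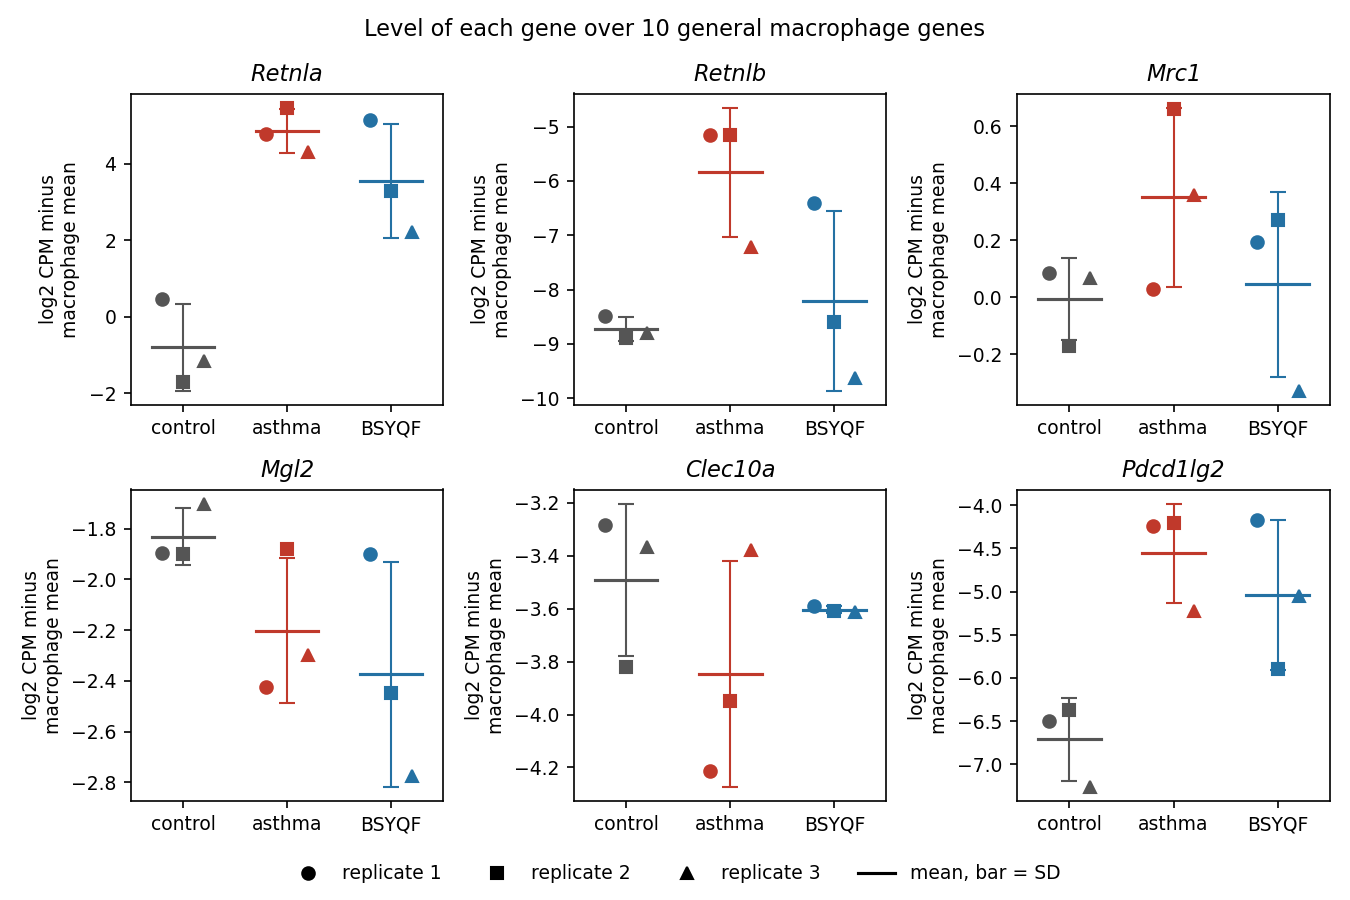
Each gene's log2 CPM minus the mean log2 CPM of 10 general macrophage genes, per library and group, with the group mean as a line and the SD as a bar (n = 3). Retnla, Retnlb and Pdcd1lg2 lie higher in all asthma libraries than in all control libraries, while Mrc1, Mgl2 and Clec10a overlap. Retnlb and Pdcd1lg2 passed the filter through their diseased libraries.

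Other cells can also carry these transcripts. Of 12 goblet cell genes, 11 rose in asthma and none fell, where 8.23% of all genes were called as higher. Of the 11, Foxa3 (3, 8 and 5 control counts) and Gcnt3 (3, 2 and 0) passed the filter through their diseased libraries. The summed level of the 12 genes was 107 to 151.9 CPM in control, 669 to 4844 CPM in asthma and 521 to 6044 CPM after BSYQF. Goblet cells are the known source of Retnlb, and their part in its rise was not tested. Eosinophils can also carry Retnla, and none of 5 eosinophil genes tested was called. The summed level of the list was 9.04 to 15.02 CPM in control, 12.2 to 13.8 in asthma and 14.0 to 26.7 after BSYQF. The control range overlapped with both others, while every BSYQF library lay above every asthma library. Their part in the level of Retnla was not tested. Of the granule genes that define eosinophils, Epx was at 0 in every asthma and BSYQF library, while Prg2 had 4, 0 and 0 counts in control, 6, 14 and 14 in asthma and 39, 37 and 12 after BSYQF (edgeR adjusted p = 0.0818 for asthma and 0.0617 for BSYQF against control). B cells also carry Pdcd1lg2 in mice; none of 8 B cell genes was called, at a summed 173 to 451 CPM in control and 301 to 552 in asthma. Airway epithelium can carry Retnla: of 10 epithelium genes Epcam rose by 0.57 and Foxj1 by 0.86, and Krt5, a basal cell gene, fell by 4.13. The epithelium list summed to 44028 to 58648 CPM in control, 49784 to 73220 CPM in asthma and 49768 to 73482 CPM after BSYQF, and its part in the rise of Retnla was not tested. Lymphatic endothelium carries Mrc1, and none of 6 of its genes tested was called (318 to 485 CPM in control, 165 to 701 in asthma).

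The cytokine path upstream was measured only in part. Il4 had at most 11 counts and Il13 at most 16 in any library, and neither passed the filter on low counts. The receptor chain Il4ra (log2 difference 0.13, edgeR adjusted p = 0.578) and Stat6 (-0.22, adjusted p = 0.276) did not pass the test in asthma. Of 18 genes of the path tested, 5 rose and 1 fell, with a median log2 difference of 0.33. Irf4, a transcription factor needed for alternative activation, rose by 1.98 (edgeR adjusted p = 0.0128), from 10.1 ± 2.95 to 40.1 ± 18.6 CPM, and stood at 47.9 ± 14.3 CPM after BSYQF. The feedback inhibitors Socs1 and Socs3 rose by 1.64 and 1.16, Jak3 by 1.03 and Myc by 0.97, and the histone demethylase gene Kdm6b fell by 0.74.

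Of 19 other alternative activation genes tested, 7 rose in asthma and none fell, with a median log2 difference of 1.87. Arg1 (arginase, which competes for the substrate of nitric oxide synthase) had 59, 54 and 16 counts in control, 4003, 2792 and 836 in asthma, and 1606, 353 and 150 after BSYQF. As for Retnla, asthma 3 was the lowest of its group and BSYQF 1 the highest of its own, and Arg1 rose by 5.97 (edgeR adjusted p = 0.0195). The scavenger receptor Msr1 rose by 3.95, the interleukin 1 receptor antagonist Il1rn by 3.46, Ch25h by 3.06, the chemokine Ccl22 by 2.74, Tmem26 by 1.61 and the folate receptor Folr2 by 1.10. Chil3 (Ym1), a secreted chitinase-like protein, had a log2 difference of 4.10 that missed the threshold (adjusted p = 0.0563, edgeR), with 70077 counts in BSYQF 1 against 3904 and 4619 in BSYQF 2 and 3. None of the 19 was called between BSYQF and asthma, with a median of -0.36, and 4 (Msr1, Ccl22, Ch25h and Il1rn) were called above control after BSYQF.

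Genes of classical activation, the program that interferon and bacterial products start, moved in part as well. Of 15, 5 rose and none fell, Cd80 and Cd86 (given above) and Irf5 as well as the interferon-induced chemokine Cxcl9 by 3.12 (edgeR adjusted p = 0.0042) and Cxcl10 by 2.51, with a list median of 0.95. Nos2, the defining gene of that state, had a log2 difference of 0.39 that did not pass the test (adjusted p = 0.535, edgeR).

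**Figure D5:**
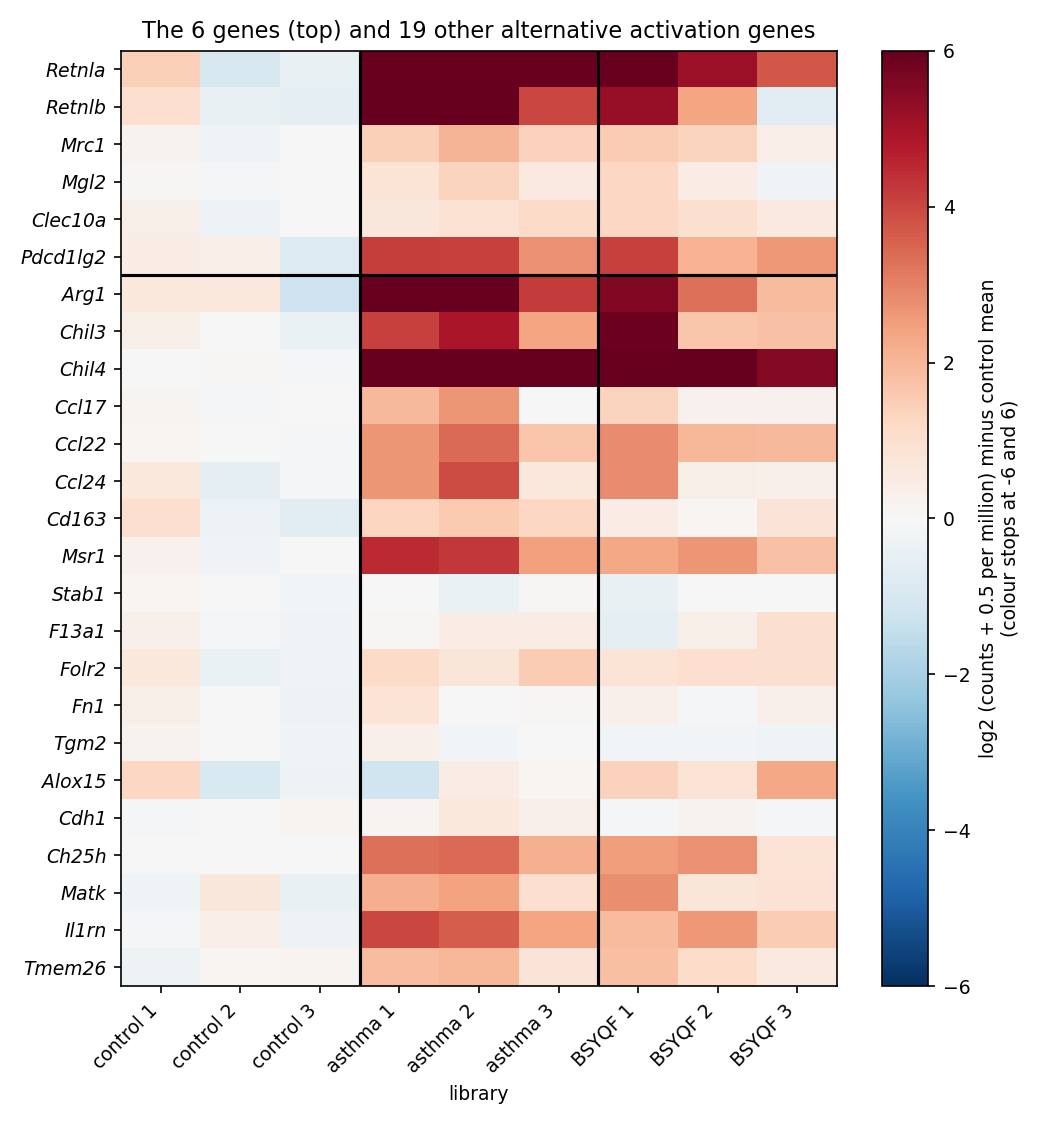
Log2 CPM minus the control mean in each of the 9 libraries (columns) for the 6 members and 19 other alternative activation genes (rows), with the colour scale ending at -6 and 6. Retnla reaches the end of the scale in the 3 asthma libraries and BSYQF 1, and BSYQF 3 has the palest colour of the diseased libraries for Retnla and Arg1.

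By Pearson correlation of log2 CPM over the 9 libraries, the genes most like Retnla were Tbc1d9 (r = 0.988), the goblet cell gene Clca1 (0.985) and the complement gene C1qa (0.984). Those most like Retnlb were Adam15 (0.992), Rpl23 (0.985) and Wdr55 (0.984). Those most like Mrc1 were the chemokine Ccl9 (0.986), Clta (0.983) and Dok1 (0.982), and for Mgl2 they were B3gat3, Sat1 and Samd1 (0.981 each). Clec10a went with Nr1i2 (0.974), C1qa (0.964) and C1qc (0.961), and Pdcd1lg2 with Shcbp1 (0.989) and Tnfrsf26 (0.982). With 9 libraries in 3 groups many genes reach such values, and no p is given.

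The authors' deposited tables hold no gene whose log2 fold change lies between -1 and 1 or whose unadjusted p exceeds 0.05. They list 4 of the 6 members for asthma against control, among 1746 genes. The authors' deposited log2 fold changes there were 6.64 for Retnla, 7.09 for Retnlb, 1.62 for Mrc1 and 3.75 for Pdcd1lg2, while Mgl2 and Clec10a are not in that deposited table of the authors. For BSYQF against control the authors' deposited table holds 896 genes, with log2 fold changes of 5.68 for Retnla, 4.76 for Retnlb (adjusted p = 0.146), 3.17 for Pdcd1lg2 and 1.13 for Mrc1. The authors' deposited adjusted p for Mrc1 there is 0.00102, against 0.0667 by edgeR here. For BSYQF against asthma the authors' deposited table holds 424 genes and, of the members, Retnlb alone, at -2.34 with p = 0.0291 and an adjusted p of 0.727.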

How the data were processed

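Whole-lung RNA was extracted with Trizol and sequenced from NEBNext Ultra libraries, per the labels' protocols. The deposited values used here are raw counts of reads per gene. FastQC, cutadapt, STAR, HTSeq, DESeq2 and the build mm10 are named in the submitters' processing notes; the sources used here do not give versions, annotation, strand or the treatment of shared reads. The authors' deposited tables of selected genes give log2 fold changes with p-values and adjusted p-values, and 36 further columns of per-library values in them were not used. The members and gene lists were chosen with earlier results of these data known, and the parts of the text on lists name the genes called plus the defining genes of a pathway or cell type.

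Counts were filtered with filterByExpr and scaled by TMM (factors 0.914 to 1.07) in edgeR 4.0.16 (R 4.3.3). The quasi-likelihood test was fitted to all 9 libraries with 3 groups and no covariate, and p-values were adjusted by Benjamini-Hochberg over 14739 genes (biological coefficient of variation 0.244). CPM (counts per 1000000) and RPKM (CPM per kilobase) use the TMM-scaled library sizes, and RPKM the union of exons of GENCODE vM21. Log2 CPM for ratios and correlations used a prior count of 2. DESeq2 1.42.0 and limma 3.58.1 (voom) were alternatives, with other scaling, filters, dispersion method, samples, a replicate block and each library left out. The tests were checked on simulated counts. None of the 36 pairs of libraries agreed within sampling noise (chi-square per degree of freedom of 20.04 or more). Intervals cover counting error only, since reads without molecular identifiers are not independent molecules. Sequences came from RefSeq and GENCODE on GRCm38.p6, which has the coordinates of mm10. No protein sequences were used here. Some genes that the naming rule selects are not reported here.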

Additional observations from a re-analysis of the deposited data

How the results depend on the processing

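Of 287 single-gene alternatives, 242 kept direction and side of the threshold, 28 lost the call, 13 gained it and 4 turned direction, all for Clec10a in BSYQF against asthma (0.01 with all libraries), which was -0.028 by limma voom, -0.012 with the replicate block, -0.09 without asthma 1 and -0.15 without BSYQF 1 (range -0.15 to 0.15 with 1 library left out). In asthma against control, where the test called 4 members and 1869 genes, leaving out 1 library gave 0 to 6 members and 171 to 4262 genes, with no member called without control 2, and DESeq2 called 6 members and 3263 genes. In BSYQF against asthma no alternative called a member; the genes called, 1 in all, were 122 by DESeq2, 0 by limma voom, 0 with only those groups fitted, and 0 to 114 with 1 library left out, 114 without asthma 3. In BSYQF against control, with 2 members and 246 genes called, there were 1 member without the filter on low counts, 4 members and 806 genes by DESeq2, 1 member and 90 genes by limma voom, 1 member with the newer dispersion method, 1 member and 389 genes with only those groups fitted, and 0 to 3 members and 9 to 563 genes with 1 library left out. Retnlb was not tested where only BSYQF and control were fitted. The replicate numbers did not pair the libraries (correlation of deviations -0.259 to 0.339 over same-numbered pairs); with the number as a block the test called 4 members of 1469 genes in asthma against control, 0 members of 15 genes in BSYQF against asthma and 2 members of 237 genes in BSYQF against control. Of 162 alternative ratios over macrophage genes 13 moved by more than the spread, and of 6 levels per length 2 did. Depth limits Retnlb most, with 1 control count, and Pdcd1lg2, with 23 control counts in sum.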
